A study of Mus musculus with 6 samples.

Results

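Spermatogonial stem cell niche factors are the signals, and the genes behind them, with which the somatic cells of the testis keep the stem cell pool of spermatogenesis. Their transcripts were examined in cultured primary Sertoli cells from mice labelled wild type (WT) or as conditional knockouts (cKO) of Arhgef15, a guanine nucleotide exchange factor gene. Arhgef15 transcripts were not lower under the cKO label, so WT and cKO stand here for libraries labelled that way. The 9 genes Gdnf, Nrtn, Kitl, Fgf2, Fgf8, Csf1, Cxcl12, Nrg1 and Etv5 were chosen by name, and all 9 were found among the 29275 genes listed for each library. Of these 9 genes, 6 passed the filter on low values (1 FPKM or more in 3 or more libraries of 6) and Nrtn, Nrg1 and Fgf8 did not.

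The 6 libraries comprised 3 labelled WT, whose treatment is given as untreated, and 3 labelled Arhgef15 cKO, for which the labels state a conditional deletion in Sertoli cells. The titles call them biological replicates. Cells of both genotypes were cultured in DMEM/F12 with fetal bovine serum and EGF, so a ligand of the EGF receptor was present in every culture. The Cre driver, the deleted exons, the strain, the age of the mice, the number of animals per culture and whether cultures shared a litter or day were not given in any source used here, so the p-values reflect only how these 6 libraries spread, which may be technical. Values are FPKM, fragments scaled to exonic length and to the library total, and can be compared between genes because they are per length.

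In the seminiferous tubule, Sertoli cells release GDNF, which binds GFRA1 on undifferentiated spermatogonia and signals through RET to maintain self-renewal. KIT ligand, which exists as a membrane-bound and a soluble form, acts through KIT on differentiating spermatogonia, and CXCL12 acts through CXCR4 to hold stem cells in the niche. FGF2 and FGF8 act through FGF receptors, and CSF1 acts through CSF1R and is known from Leydig, peritubular myoid and other interstitial cells. NRG1 acts through ERBB receptors, NRTN is the GDNF family ligand of GFRA2, and ETV5 is an ETS transcription factor that operates in Sertoli cells and in spermatogonia.

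Depth was estimated at 16790000 to 20320000 fragments per library from the step between neighbouring values. Arhgef15 was at 0.0237 to 0.349 FPKM for WT against 0.322 to 0.501 FPKM for cKO, with a log2 difference of 0.26 (SE 0.13, limma over 29275 genes, adjusted p = 0.903). Wild-type replicate 3 lay away from its own group, with a correlation across 12284 genes of 0.860 and 0.898 with WT replicates 1 and 2 and of 0.921 to 0.947 with the cKO libraries. Each member's difference is therefore given with and without it. The fit without it rests on WT replicates 1 and 2 alone for WT. Leaving it out enlarges differences in genes where it resembled cKO, so a pass in that fit is no separate support. WT replicates 1 and 2 also had the fewest genes above 0, at 19105 and 20807, against 21933 to 23862 in the others. Among the fixed Sertoli markers, Sox9 and Wt1, transcription factors of Sertoli cell identity, were at 5.10 to 35.6 FPKM and 2.75 to 25.0 FPKM, while the FSH receptor gene Fshr was listed at 0 in WT replicates 1 and 2 and at 0.202 to 1.42 FPKM in the other libraries.

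The niche factors spanned levels from strong expression to the limit of detection. Over the 6 libraries Csf1 averaged 313.9 ± 137.0 FPKM (SD, n = 6), Cxcl12 90.8 ± 35.5, Kitl 35.2 ± 15.3, Fgf2 22.4 ± 7.02 and Etv5 12.4 ± 2.47 FPKM. Gdnf averaged 7.20 ± 5.02 FPKM, Nrtn 1.13 ± 1.04 and Nrg1 0.533 ± 0.180 FPKM. This order held within every library for Csf1, Cxcl12, Kitl and Fgf2, each of which lay above the next in 6 of 6 libraries, although the ranges of neighbours overlapped between libraries. Fgf2 lay above Etv5 with no overlap, its lowest value being 16.4 FPKM and the highest Etv5 value 15.0 FPKM. Etv5 exceeded Gdnf in 5 of 6 libraries, the exception being cKO replicate 2, and Gdnf exceeded Nrtn in 5 of 6, the exception being WT replicate 1. Nrtn exceeded Nrg1 in 5 of 6 libraries with overlapping ranges, and Fgf8, at a mean of 0.051 FPKM, lay below Nrg1 in all 6.

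**Figure D1:**
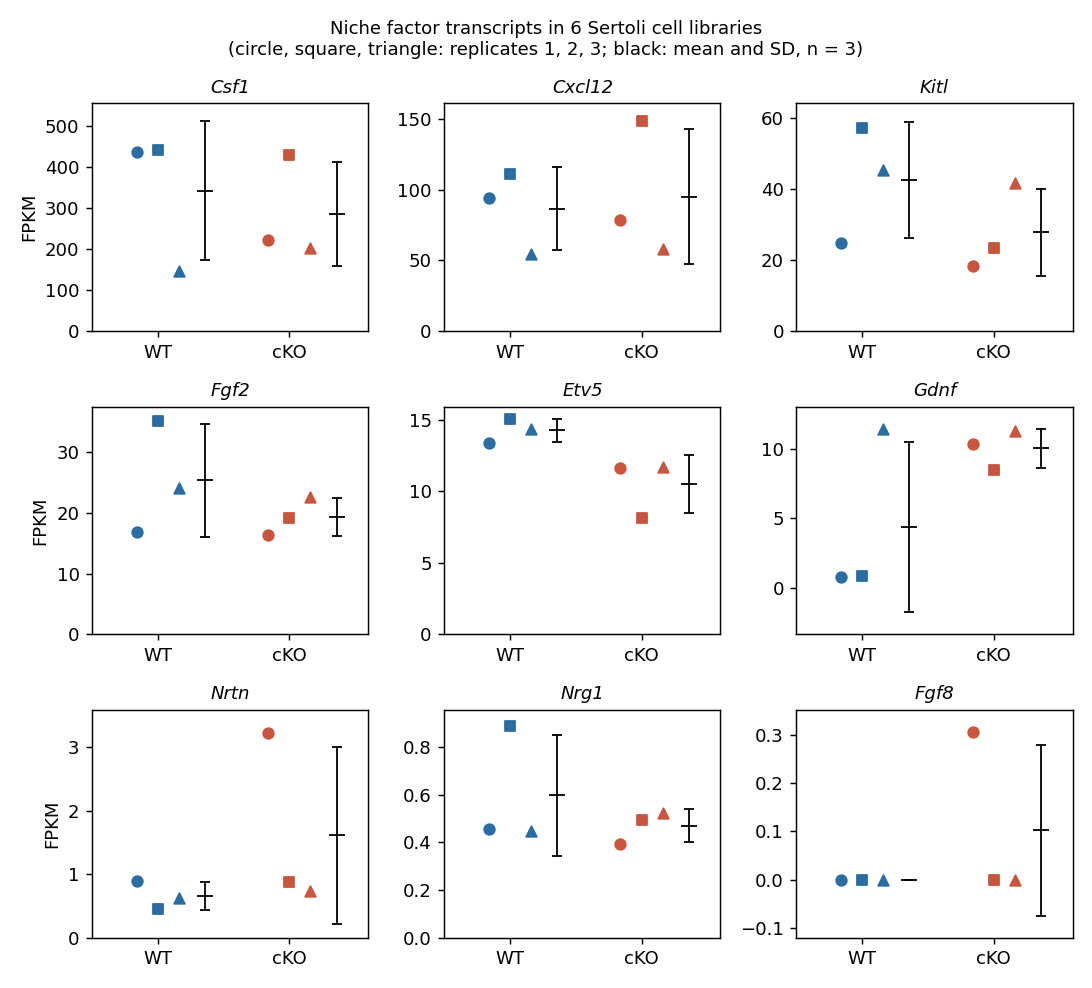
FPKM (vertical axes, linear, a scale for each gene) of the 9 niche factor transcripts in wild-type (blue) and cKO (red) libraries, with replicates as symbols and the group mean and SD (n = 3) in black. Gdnf lay near 0.8 to 0.9 FPKM in WT replicates 1 and 2 and between 8.48 and 11.4 FPKM in the other 4 libraries, and Etv5 is the 1 gene whose groups do not overlap.

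None of the 9 niche factors passed the threshold between genotypes (limma, Benjamini-Hochberg adjusted p under 0.05), where 0.0163% of the 12284 genes tested did. By the mean of log2(FPKM + 1), the scale used for all counts of higher and lower genes, cKO libraries were higher for 4 of the 9 and lower for 5, with a median log2 difference of -0.11. Over all genes tested, 59.8% were higher and the median was 0.08. At an unadjusted p under 0.05 there was 1 member, Gdnf, against 6.81% of all genes tested. In 1 member, Etv5, the highest cKO value was under the lowest WT value, as it was for 5.01% of all genes tested. In no member was the order the other way round, and either order was found for 11.3% of all genes.

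Gdnf (ENSMUSG00000022144), the ligand that maintains spermatogonial stem cells, had the widest spread of the 9 on the log2 scale. It was listed at 0.827, 0.879 and 11.4 FPKM for WT replicates 1 to 3, against 10.4, 8.48 and 11.2 FPKM for cKO replicates 1 to 3. Wild-type replicate 3 was thus the highest library, and the groups overlapped. The values rested on 57, 63 and 852 fragments for WT against 738, 523 and 829 for the cKO replicates. The exact Poisson 95% intervals, which cover counting error only, were 43.2 to 73.9 and 48.4 to 80.6 fragments in WT replicates 1 and 2, against 479.1 to 569.8 in cKO replicate 2, the lowest of the others. Counting error is therefore small beside the 13.8-fold span between the highest and the lowest library.

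The group means of Gdnf were 4.37 ± 6.10 FPKM for WT against 10.0 ± 1.41 FPKM for cKO (SD, n = 3 each). On that log2 scale, which holds for all differences given here, cKO exceeded WT by 1.65 (SE 0.70), with a 95% interval of 0.021 to 3.28 (limma, unadjusted p = 0.0478, adjusted p = 0.727). With a pseudocount of 5 in place of 1 it was 0.86 (limma, unadjusted p = 0.0580) and with 0.1 it was 2.20 (unadjusted p = 0.0443). The two-sided exact permutation p was 0.4, where 3 against 3 libraries cannot go below 0.1. Without WT replicate 3, Gdnf was higher by 2.56 with an SE of 0.22 and passed the threshold (limma, adjusted p = 0.00767), in a fit where 3.89% of the 12284 genes passed and 2.47% passed as higher. As WT replicate 3 was the highest library for Gdnf, leaving it out was bound to raise the difference. Gdnf did not pass with any other library left out, where the difference was 1.18 to 1.75. On the scale of log2 range over the 6 libraries, Gdnf ranked 362 of 12284 genes.

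The stretches before the annotated starts of Gdnf, Csf1 and Cxcl12 are shown because Gdnf varied most and the other pair varied side by side. Kitl and Fgf2, which also varied side by side, are not shown. Each stretch shown is the 250 bases before a start from RefSeq, build GRCm38.p6, read on the gene's strand, with matches to any motif searched in capitals. Of the 9 members, 7 had an entry, and Gdnf has 2 starts that a value per gene does not separate. The Gdnf stretches lie at chr15:7809798-7810047 and chr15:7813477-7813726 on the plus strand, that of Csf1 at chr3:107760470-107760719 on the minus strand and that of Cxcl12 at chr6:117168285-117168534 on the plus strand.
Gdnf, first start: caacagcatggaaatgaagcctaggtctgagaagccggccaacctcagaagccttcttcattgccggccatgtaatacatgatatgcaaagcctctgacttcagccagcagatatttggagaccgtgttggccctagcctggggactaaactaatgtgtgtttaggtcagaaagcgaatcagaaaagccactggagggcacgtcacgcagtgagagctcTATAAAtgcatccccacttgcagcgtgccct
Gdnf, second start: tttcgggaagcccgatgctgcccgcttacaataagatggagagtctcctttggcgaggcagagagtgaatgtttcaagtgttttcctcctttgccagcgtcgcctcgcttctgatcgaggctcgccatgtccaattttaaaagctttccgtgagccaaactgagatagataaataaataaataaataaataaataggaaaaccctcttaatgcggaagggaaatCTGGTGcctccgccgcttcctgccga
Csf1: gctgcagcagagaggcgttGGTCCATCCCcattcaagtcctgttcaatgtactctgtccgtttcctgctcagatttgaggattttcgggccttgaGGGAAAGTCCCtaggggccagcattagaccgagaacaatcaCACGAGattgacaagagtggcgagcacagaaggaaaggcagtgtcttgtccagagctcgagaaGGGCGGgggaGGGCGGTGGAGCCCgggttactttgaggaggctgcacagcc
Cxcl12: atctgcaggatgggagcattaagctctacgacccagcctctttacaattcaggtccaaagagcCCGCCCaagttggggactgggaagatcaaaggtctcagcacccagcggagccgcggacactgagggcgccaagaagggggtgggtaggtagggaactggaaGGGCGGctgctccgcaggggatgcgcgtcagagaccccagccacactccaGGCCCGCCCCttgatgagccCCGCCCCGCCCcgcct

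Both strands were searched for 7 motifs, and overlapping matches were kept. The NF-kB pattern was GGG and then, after any 5 bases, CC. The E-box searched for was CACGTG, and the N-box, which HES factors bind, was CACNAG. The cyclic AMP response element was given the letters TGACGTCA, while the AP-1 element was written as TGANTCA. For the core promoter, the TATA box was represented by TATAAA, and the GC box of SP1 family factors was represented by GGGCGG. The first Gdnf stretch held TATAAA at 31 to 26 bases before the start and no other match, and the second held 1 match to CACNAG at 26 to 21 bases before the start. TATAAA is present in 12.4% and CACNAG in 36.7% of the 32851 RefSeq promoters at the same length. The Csf1 stretch held 4 matches to the NF-kB pattern, which 45.8% of promoters hold at least once. They lie at 231 to 222, 155 to 146, 154 to 145 and 37 to 28 bases before the start, and the last overlaps the GC box at 41 to 36. The other capitals of Csf1 are a second GC box at 51 to 46 and an N-box at 114 to 109. The Cxcl12 stretch held 5 matches to GGGCGG, present at least once in 32.7% of promoters, and 1 to the NF-kB pattern, which overlaps a GC box. Kitl, Etv5 and Nrtn, whose stretches are not shown, also held several matches to the NF-kB pattern. A match describes letters and does not show that a factor binds there.

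The transcripts whose library values lay closest to those of Gdnf were sought among 7020 named genes with a mean of at least 5 FPKM (predicted genes and pseudogenes left out), by the root mean square difference of log2(FPKM + 1) values centred on each gene's 6-library mean. The nearest was Igsf11, an immunoglobulin superfamily adhesion protein of brain and testis, at a difference of 0.097. It was listed at 1.03, 1.21 and 11.2 FPKM for WT replicates 1 to 3, against 10.4, 8.46 and 11.2 FPKM for the 3 cKO libraries, close to the Gdnf value in each. Next came Atp1b1, a subunit of the sodium-potassium pump, at 0.22, and Mtcl1, a microtubule crosslinking protein, at 0.23. Rdh10, which makes retinaldehyde for retinoic acid synthesis, and Bex4 each lay at 0.23. As these 5 genes were chosen for nearness to Gdnf, their sharing its lowest libraries, WT replicates 1 and 2, is no separate finding. None passed the threshold between genotypes (limma, adjusted p = 0.608 to 0.792).

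**Figure D2:**
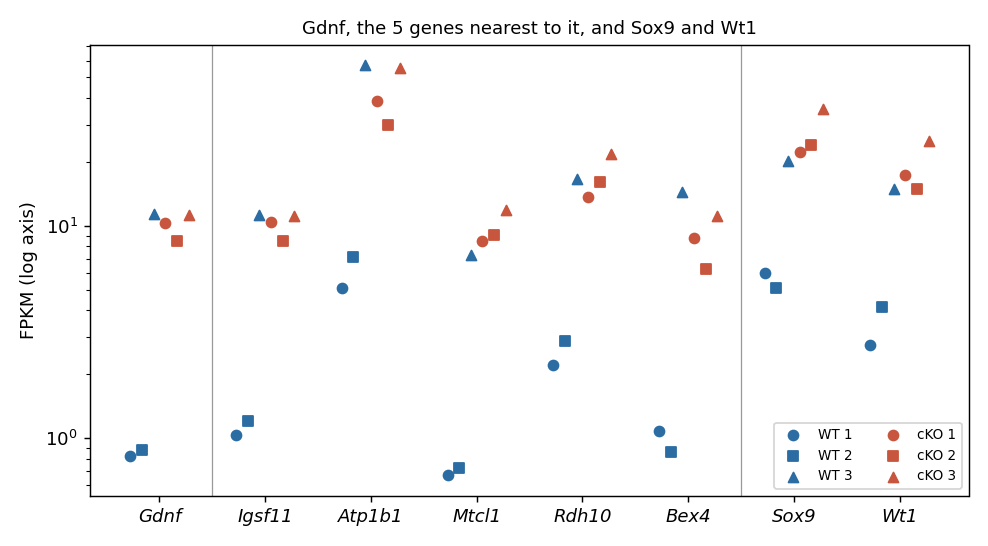
FPKM (logarithmic vertical axis) of Gdnf, the 5 genes nearest to it over the 6 libraries, and the Sertoli cell transcription factors Sox9 and Wt1, with WT libraries in blue, cKO libraries in red and replicates as symbols. WT replicates 1 and 2 are the lowest libraries in the 8 genes plotted, 5 of which were chosen for nearness to Gdnf. Among the 22 Sertoli markers this holds for 9, and the share over all genes was not counted. Gdnf is at 0.827 and 0.879 FPKM in WT replicates 1 and 2.

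Markers of several cell types moved with Gdnf, and in these bulk samples fewer cells of a type and less RNA per cell cannot be told apart. The mean log2(FPKM + 1) of the 22 Sertoli markers was 3.32 and 3.14 in WT replicates 1 and 2, 4.13 in WT replicate 3 and 4.12, 3.73 and 4.23 in the cKO libraries. Of these 22 genes, 9 had WT replicates 1 and 2 below the other 4 libraries, Sox9 and Wt1 among them, and 3 had them above. Those 3 were Sox8, Inhbb (65.7, 85.4 and 6.04 FPKM for WT against 15.4 to 32.6 FPKM for cKO) and Vim, while Gata4 and Nr5a1 were lowest in WT replicate 3. The summed level did not follow the mean, with 1200 to 1578 FPKM for WT against 1202 to 1648 FPKM for cKO. Macrophage markers mostly ran the other way. They were led by the lysozyme gene Lyz2, at 647.8, 576.9 and 66.5 FPKM in WT and 37.1 to 69.4 FPKM for cKO. In 11 of the 14 genes of that list, WT replicates 1 and 2 lay above the other 4 libraries. How many of all genes split the libraries this way was not counted. Neither this count nor those of the Sertoli list therefore set the markers apart from other genes. Cd14 did not follow, at 18.0, 13.3 and 32.6 FPKM for WT against 47.1, 48.4 and 9.45 FPKM for cKO. The list, to which Lyz2 gave the most, summed to 1251, 994.4 and 238 FPKM in WT and 156 to 291.5 FPKM for the 3 cKO libraries. Endothelial markers summed to 36.9, 32.0 and 62.5 FPKM for WT against 59.2 to 100.9 FPKM for cKO. The part of cell composition in the Gdnf difference was not tested. With each library centred on its mean Sertoli marker level, which shifts the median of all genes tested to -0.42, Gdnf differed by 1.16 (SE 0.47, limma, adjusted p = 0.386).

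Transcripts of germ cells did not follow Gdnf through all libraries. The 8 markers of differentiating spermatogonia and of germ cells in general summed to 3.62, 5.96 and 80.8 FPKM for WT replicates 1 to 3, against 81.4, 5.74 and 10.4 FPKM for cKO replicates 1 to 3. Gdnf was thus high in cKO replicates 2 and 3, where these markers were near the level of WT replicates 1 and 2. Markers of undifferentiated spermatogonia summed to 6.49, 7.30 and 30.3 FPKM for WT against 21.5 to 33.4 FPKM for cKO. A few genes carried that sum. In cKO replicate 2, Upp1 was at 10.8 and Pou3f1 at 8.31 FPKM, while Gfra1 was at 0.272 FPKM. Of the 15 genes measured, 10 had WT replicates 1 and 2 below all other libraries, several of them at low levels. The share of all genes with this order was not counted for comparison with the list. That list is led in p by Pou3f1, a POU domain gene induced by GDNF in cultured spermatogonia. It was at 0.277, 0.266 and 1.71 FPKM for WT against 5.00, 8.31 and 7.31 FPKM for cKO. The groups did not overlap, an order that 6.28% of all genes tested had. The difference did not pass (limma, adjusted p = 0.263, and 0.00974 without WT replicate 3). Id4, a marker of the stem cell state, was at 1.76 to 2.64 FPKM for WT against 0.758 to 2.20 FPKM for cKO.

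**Figure D3:**
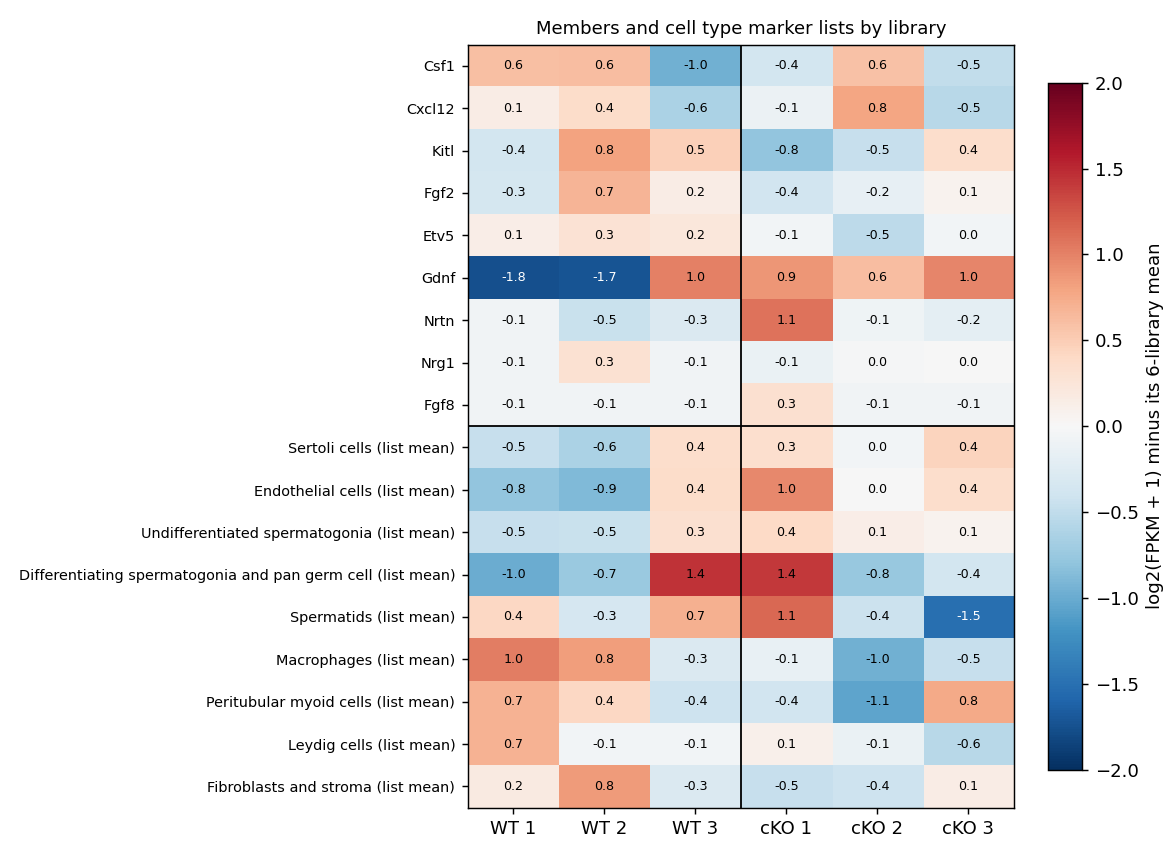
Heat map of log2(FPKM + 1) in each library (columns) minus the 6-library mean of that row, for the 9 niche factor genes (above the line) and the mean of each cell type marker list (below it), from blue (lower) to red (higher) with the value in each cell. Gdnf and the Sertoli, endothelial and undifferentiated spermatogonia lists are lowest in WT replicates 1 and 2, where the macrophage list is highest.

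The GDNF receptor genes were among the weaker transcripts. Gfra1, the GDNF co-receptor, was listed at 0.127 to 0.602 FPKM for WT against 0.272 to 0.659 FPKM for cKO. Ret, the signalling receptor tyrosine kinase, was at 0.560, 0.356 and 3.24 FPKM for WT against 2.65, 1.34 and 1.21 FPKM for cKO, highest in WT replicate 3 (limma, adjusted p = 0.905). Gfra4, which encodes the persephin co-receptor, was at 1.80 to 5.37 FPKM for WT against 1.63 to 2.76 FPKM for cKO (limma, adjusted p = 0.798). Of the 8 GDNF family ligands and receptors measured, 3 passed the filter, 2 with a higher and 1 with a lower cKO mean, at a median log2 difference of 0.36.

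Nrtn (ENSMUSG00000039481), the other GDNF family member of the 9, was at 0.886, 0.451 and 0.625 FPKM for WT replicates 1 to 3, against 3.23, 0.873 and 0.730 FPKM for the 3 cKO libraries. Only cKO replicate 1 stood out, with 64 fragments (95% interval 49.3 to 81.7) against 9 to 17 fragments in the other 5 libraries. The means were 0.654 ± 0.219 and 1.61 ± 1.40 FPKM (SD, n = 3 each), and the difference of 0.54 with an SE of 0.41 did not pass (limma over 29275 genes, adjusted p = 0.903). It was 0.53 without WT replicate 3 and 0.13 without cKO replicate 1.

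Regulators reported to act on Gdnf in Sertoli cells had higher cKO means for 11 of 13 tested genes, with a median of 0.35 and 0 passing the threshold. With libraries centred on Sertoli markers 4 were higher and 9 lower, with a median of -0.14, and without WT replicate 1 the median was 0.12. Notch1, whose signalling is reported to lower Gdnf in Sertoli cells, was at 1.30, 2.19 and 2.39 FPKM for WT against 3.30, 3.13 and 2.99 FPKM for cKO. The groups did not overlap, where 6.28% of all genes tested had every cKO value above every wild-type value, and the difference of 0.50 did not pass (limma, adjusted p = 0.748). Notch2 had 8.72 ± 3.54 FPKM for WT against 14.4 ± 3.17 FPKM for cKO (SD, n = 3 each; limma, adjusted p = 0.732). The cytokine genes Tnf and Il1b were at 292.5 and 170.1 FPKM in cKO replicate 2, and at 0.618 to 3.78 and 0.280 to 9.52 FPKM in the other 5 libraries.

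Kitl (ENSMUSG00000019966), the ligand of KIT, had a lower mean in cKO libraries that did not pass the test. It was listed at 24.9, 57.4 and 45.4 FPKM for WT replicates 1 to 3, against 18.4, 23.3 and 41.8 FPKM for the 3 cKO libraries. The 2 lowest libraries were cKO, but cKO replicate 3 lay above WT replicate 1. The means were 42.6 ± 16.4 and 27.8 ± 12.3 FPKM (SD, n = 3 each), a difference of -0.60 with an SE of 0.39 and a 95% interval of -1.52 to 0.32 (limma, adjusted p = 0.819, exact permutation p = 0.2). It was -0.52 without WT replicate 3, -0.35 without WT replicate 2 or cKO replicate 1, and -0.94 and -0.93 without WT replicate 1 and cKO replicate 3. The membrane-bound and soluble forms cannot be separated in a value per gene.

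Kit, the receptor of KIT ligand, was at 0.186, 0.265 and 3.04 FPKM for WT against 2.50, 2.54 and 1.04 FPKM for cKO (limma, adjusted p = 0.838). As with Gdnf, the lowest values were those of WT replicates 1 and 2. In the KIT system, of 2 genes, Kitl was thus lower and Kit higher in cKO libraries by their means, with a median log2 difference of 0.04 and neither passing.

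Fgf2 (ENSMUSG00000037225), a growth factor that acts with GDNF on cultured spermatogonial stem cells, was at 16.8, 35.3 and 24.1 FPKM for WT replicates 1 to 3, against 16.4, 19.1 and 22.7 FPKM for the 3 cKO libraries. The groups overlapped, with the highest and the second highest library both wild-type. The means were 25.4 ± 9.28 and 19.4 ± 3.15 FPKM (SD, n = 3 each), a difference of -0.32 with an SE of 0.29 and a 95% interval of -1.003 to 0.36 (limma, adjusted p = 0.878). It was -0.33 without WT replicate 3, -0.065 without WT replicate 2, -0.58 without WT replicate 1 and -0.21 without cKO replicate 1. Fgf2 shares 640 exonic bases with Nudt6 on the opposite strand, and with no strand setting stated their fragments there cannot be separated, but Nudt6 was at 0.642 to 1.20 FPKM. It also shares 255 exonic bases with Gm43439, which was not analysed here.

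Fgf2 and Kitl ranked the libraries almost alike. Wild-type replicate 2, WT replicate 3 and cKO replicate 3 were the highest for both, in that order, and cKO replicate 1 was the lowest for both. The ratio of Kitl to Fgf2 was 1.48, 1.63 and 1.88 for WT against 1.12, 1.22 and 1.84 in cKO libraries, a span of 1.68-fold where Kitl itself spanned 3.12-fold. Between genotypes an exact two-sided permutation of log2 ratios gave p = 0.3.

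Fgf8 (ENSMUSG00000025219) was at the limit of detection. It was listed at 0 in 5 libraries, in which 3 fragments would have given 0.109 to 0.132 FPKM, and at 0.306 FPKM in cKO replicate 1, from 8 fragments (95% interval 3.5 to 15.8). The difference of 0.13 (SE 0.11, limma over 29275 genes, adjusted p = 0.903) was the same without WT replicate 3. Of the FGF receptors, Fgfr1 was the most abundant at 31.3 ± 3.75 FPKM for WT against 36.0 ± 3.34 FPKM for cKO (SD, n = 3 each; limma, adjusted p = 0.881). Fgfr2 was at 1.38 to 3.57 and 1.03 to 1.93 FPKM, and Fgfrl1, a receptor-like protein without a kinase domain, at 13.6 to 24.8 and 11.2 to 19.5 FPKM. Of 7 tested FGF ligands and receptors, 3 had higher and 4 lower cKO means, with a median log2 difference of -0.11 and 0 passing.

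Csf1 (ENSMUSG00000014599) was the most abundant of the 9 in each library. It was at 437.5, 442.7 and 147.2 FPKM for WT replicates 1 to 3, against 223.2, 430.3 and 202.6 FPKM for the 3 cKO libraries. Values near 430 FPKM or above thus occurred in both genotypes, in WT replicates 1 and 2 and cKO replicate 2, and WT replicate 3 was the lowest. The means were 342.5 ± 169.1 and 285.4 ± 126.0 FPKM (SD, n = 3 each), a difference of -0.18 with an SE of 0.49 and a 95% interval of -1.33 to 0.96 (limma, adjusted p = 0.958). Without WT replicate 3 it was -0.71 (limma, adjusted p = 0.267), and without WT replicate 1 or 2 or cKO replicate 3 it was above 0, at 0.020 to 0.083, as it was with quantile normalization (0.025).

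Csf1r, the receptor of CSF1 and a macrophage gene, was at 25.2, 23.0 and 10.6 FPKM for WT against 11.3, 5.57 and 5.53 FPKM for cKO. Its difference was -1.26 (SE 0.39, limma, adjusted p = 0.608) and passed without WT replicate 3 (limma, adjusted p = 0.0408). Il34, which encodes the second ligand of CSF1R, was at 0.762, 0.445 and 3.87 FPKM for WT against 3.29, 5.75 and 3.23 FPKM for cKO (limma, adjusted p = 0.730, and 0.0314 without WT replicate 3). Transcripts of both ligands were therefore detected, with Csf1 far above Il34 in each library and Il34 under 1 FPKM in WT replicates 1 and 2.

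Cxcl12 (ENSMUSG00000061353), the chemokine that retains stem cells in their niche, was at 94.3, 110.9 and 54.5 FPKM for WT replicates 1 to 3, against 78.4, 148.6 and 58.0 FPKM for the 3 cKO libraries. The highest library was cKO and the lowest wild-type. The means were 86.6 ± 29.0 and 95.02 ± 47.5 FPKM (SD, n = 3 each), a difference of 0.082 with an SE of 0.40 and a 95% interval of -0.86 to 1.02 (limma, adjusted p = 0.975). It turned to -0.22 without WT replicate 3, -0.29 without cKO replicate 2 and -0.41 with the libraries centred on Sertoli markers.

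Cxcl12 and Csf1 shared their 3 highest libraries, WT replicates 1 and 2 and cKO replicate 2, and ranked the other 3 in the same order. Their ratio was 4.64, 3.99 and 2.70 for WT against 2.85, 2.89 and 3.49 in cKO libraries (Csf1 over Cxcl12, exact two-sided permutation of log2 ratios, p = 0.4). By summed FPKM, the marker lists of macrophages and peritubular myoid cells were highest in WT replicates 1 and 2. Macrophage markers summed to 156 FPKM in cKO replicate 2, against 994.4 FPKM or more in those 2 libraries. Myoid markers summed to 802.6 FPKM in cKO replicate 2, against 2399 FPKM or more. Acta2 gave most of the myoid sum, at 2853 of 3050 FPKM in WT replicate 1. Of the 6 myoid genes, 3 had WT replicates 1 and 2 above all other libraries. By mean log2(FPKM + 1) the myoid list was highest in cKO replicate 3, at 5.83, against 5.77 in WT replicate 1 and 4.02 in cKO replicate 2. In cKO replicate 3, Csf1 was at 202.6 and Cxcl12 at 58.0 FPKM. Tnf was at 292.5 FPKM in cKO replicate 2. The part of these cell types or of Tnf in the Csf1 and Cxcl12 levels was not tested.

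**Figure D4:**
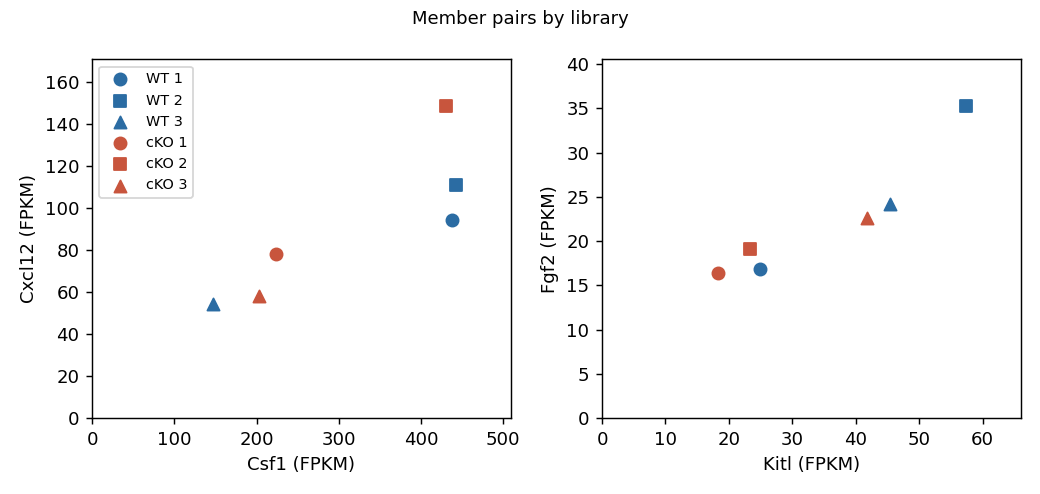
FPKM of Cxcl12 against Csf1 (left) and of Fgf2 against Kitl (right) in the 6 libraries (linear axes from 0; wild-type blue, cKO red, replicates as symbols). Csf1 and Cxcl12 were both highest in WT replicates 1 and 2 and cKO replicate 2, and Kitl and Fgf2 were both highest in WT replicate 2, at 57.4 and 35.3 FPKM.

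Of the CXCL12 receptors, Cxcr4 was at 1.24, 0.907 and 3.62 FPKM for WT against 2.40, 1.32 and 1.35 FPKM for cKO. Ackr3, the scavenging receptor, was at 0.542, 0.812 and 6.33 FPKM for WT against 3.98, 2.15 and 2.75 FPKM for cKO. Both were highest in WT replicate 3 (limma, adjusted p = 0.990 and 0.897). In the CXCL12 system 2 of 3 genes had higher cKO means, with a median of 0.08, and in the CSF1 system 1 of 3, with a median of -0.18.

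Nrg1 (ENSMUSG00000062991), the neuregulin that acts on spermatogonia, was at 0.456, 0.890 and 0.446 FPKM for WT against 0.391, 0.494 and 0.522 FPKM for cKO. Only WT replicate 2 stood above the rest, and the difference was -0.11 with an SE of 0.18 (limma over 29275 genes, adjusted p = 0.930), or -0.18 without WT replicate 3 and 0.017 without WT replicate 2. Its partner Erbb3 was at 0.129 to 0.556 FPKM, while Erbb2, the shared co-receptor, was at 3.82 to 7.85 FPKM for WT against 5.59 to 6.70 FPKM for cKO. The EGF receptor gene Egfr was the most abundant of the ERBB family at 18.6 to 37.9 FPKM. Of 2 tested genes in the neuregulin and ERBB list both were higher in cKO by mean log2 value (1 with median-ratio or quantile scaling, 0 with Sertoli marker scaling), with a median of 0.062 and 0 passing. For Erbb2 that difference was 0.011, and its mean FPKM was 6.49 in WT and 6.29 in cKO. Nrg1 shares 482 exonic bases with Gm26578 on the opposite strand, which was not analysed here.

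Etv5 (ENSMUSG00000013089), the ETS factor, had the smallest range over the 6 libraries, relative to its level, of the 6 members that passed the filter. It was at 13.4, 15.0 and 14.4 FPKM for WT replicates 1 to 3, against 11.6, 8.16 and 11.7 FPKM for the 3 cKO libraries. Each cKO library lay below each wild-type library. The means were 14.2 ± 0.829 and 10.5 ± 2.03 FPKM (SD, n = 3 each), a difference of -0.42 with an SE of 0.21 and a 95% interval of -0.92 to 0.077 (limma, adjusted p = 0.755). The exact permutation test gave p = 0.1, the smallest that 3 against 3 allows. The difference was -0.41 without WT replicate 3 and -0.26 without cKO replicate 2.

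Genes described as targets of ETV5 did not share a direction. Ccl9, a chemokine gene, was at 72.4, 73.0 and 47.2 FPKM for WT against 39.5, 46.3 and 17.5 FPKM for cKO. Its groups narrowly did not overlap, an order that 5.01% of all genes tested had (limma, adjusted p = 0.692). Mmp12, a macrophage elastase, had 27.0 ± 7.58 and 23.0 ± 7.71 FPKM (SD, n = 3 each), while Cxcl5 was at 38.4, 139.3 and 379.4 FPKM for WT against 383.2, 1710 and 335.9 FPKM for cKO (limma, adjusted p = 0.703). With Etv5 itself and the related factor Etv4 included, 5 of 6 tested genes of this list had lower cKO means, the median was -0.25 and 0 passed. Ccl7 counts among the lower by its log2 difference of -0.13, although its mean was 256.3 FPKM in WT and 342.6 FPKM in cKO.

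Feedback genes of FGF and ERK signalling, which include the Sprouty and Spred inhibitors and dual specificity phosphatases, were higher for 5 of 8 and lower for 3, with a median of 0.20 and 0 passing. Spred2 had 20.01 ± 5.61 FPKM for WT against 26.1 ± 2.50 FPKM for cKO, and Dusp5, a nuclear ERK phosphatase, 22.8 ± 11.4 and 32.9 ± 7.62 FPKM (SD, n = 3 each; limma, adjusted p = 0.795 and 0.815). Spry1 was at 33.7, 38.9 and 4.61 FPKM for WT against 6.75, 12.5 and 15.2 FPKM for cKO. It was the 1 gene of this list called without WT replicate 3, as lower (limma, adjusted p = 0.0440).

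**Figure D5:**
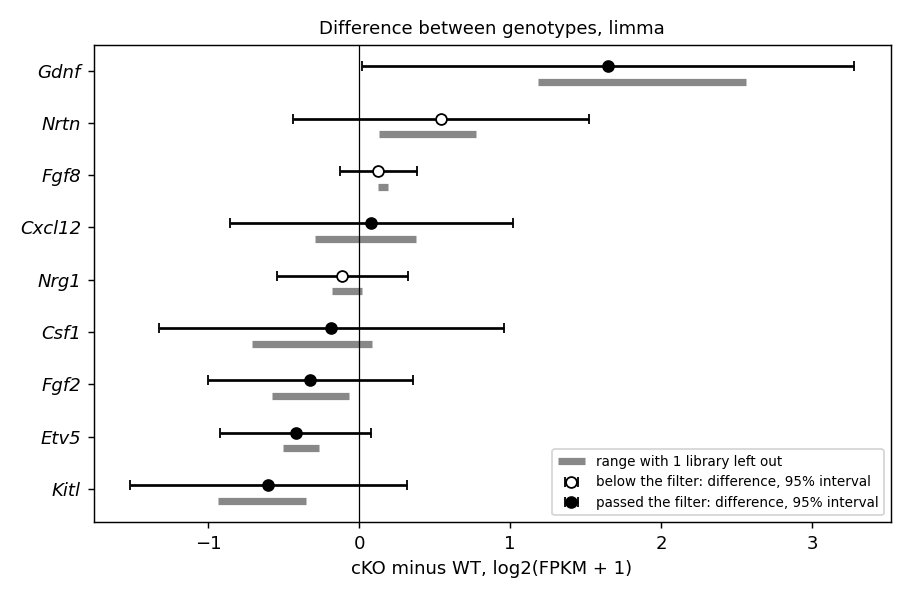
Difference between genotypes (cKO minus WT, horizontal axis, log2(FPKM + 1)) of each niche factor, with its 95% interval from limma (filled, passed the filter; open, below it) and, in grey, the range of the difference when 1 library is left out. The interval of Gdnf runs from 0.021 to 3.28, the other 8 intervals include 0, and the grey bars of Cxcl12, Csf1 and Nrg1 cross 0.

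Other niche factors that Sertoli cells can make divided evenly, with 9 of 17 tested genes higher and 8 lower, a median of 0.11 and 0 passing. Dhh, the hedgehog ligand of Sertoli cells, was at 0.412, 0.245 and 1.01 FPKM for WT against 1.45, 1.69 and 2.26 FPKM for cKO. The groups did not overlap, an order that 6.28% of all genes tested had (limma, adjusted p = 0.598). Lif, a cytokine used in stem cell culture, was at 8.85, 9.57 and 68.9 FPKM for WT against 87.5, 125.4 and 32.8 FPKM for cKO (limma, adjusted p = 0.730, and 0.0349 without WT replicate 3). Bmp4 ran the other way, at 9.49, 17.9 and 1.66 FPKM for WT against 1.74, 1.11 and 2.70 FPKM for cKO (limma, adjusted p = 0.732, and 0.0207 without WT replicate 3). Like Gdnf, Lif and Bmp4 divided WT replicates 1 and 2 from the other 4 libraries. Without WT replicate 3, 3 genes of this list were called higher and 4 lower, in the fit that called 3.89% of all genes, 2.47% as higher. The median lay between -0.15 and 0.092 with 1 library left out.

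Among the remaining marker lists, the medians of tested genes were 0.34 for Sertoli cells (14 of 20 higher), -1.36 for macrophages (11 of 12 lower), 1.00 for endothelial cells (7 of 7 higher) and 0.69 for undifferentiated spermatogonia (6 of 7 higher). They were 0.20 for differentiating spermatogonia and germ cells (5 of 6 higher), -0.40 for spermatids (6 of 7 lower), -0.54 for peritubular myoid cells (4 of 6 lower), -0.67 for Leydig cells (3 of 4 lower) and -0.31 for fibroblasts and stroma (6 of 8 lower). No gene of these lists passed the threshold in the fit of all 6 libraries (limma, adjusted p under 0.05). Without WT replicate 3, where 3.89% of all genes passed, 8 Sertoli markers were called higher and 1 lower, 3 endothelial markers higher, 2 undifferentiated spermatogonia markers higher, 3 macrophage markers lower, 2 myoid and 2 fibroblast markers lower, and 1 Leydig marker each way. With 1 library left out in turn, the germ cell median ran from -0.73 (without cKO replicate 1) to 1.28 (without WT replicate 3) and was below 0 without WT replicate 1 or 2. That of spermatids ran from -1.37 (without cKO replicate 1) to -0.12 (without WT replicate 1), of myoid cells from -1.08 (without WT replicate 3) to -0.16 (without WT replicate 1) and of Leydig cells from -0.87 (without cKO replicate 1) to -0.22 (without WT replicate 1). Gfra1, Ret, Kit and Csf1r stand in both a pathway and a marker list.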

How the data were processed

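RNA of primary mouse Sertoli cells was sequenced in 6 libraries, 3 per genotype, grouped by their titles. The authors ran FastQC and aligned with HISAT2 2.1.0, and name build mm8, per the submitters' processing notes. Which counter and annotation were used, and whether strand was, is not given in the sources used here. Deposited values were taken as FPKM from the files: value times GENCODE M21 exonic length came out as whole multiples of a fixed step for 99.1% to 99.5% of values of single-exon genes with few fragments (within 0.02 times the fragment number), and all 13 nonzero values of Gdnf, Nrtn and Fgf8 came out whole within 0.01. Those of Nrg1 did not with that length, and its fragment numbers are not used. Gene identifiers newer than mm8 put that build in doubt, so genes are given without coordinates and only RefSeq stretches carry them. Of 29275 identifiers, 28932 matched a symbol. Gfra3 and Nanos2 were listed for the analysis and not analysed here.

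Values were taken as log2(FPKM + 1), which understates changes of low genes. A gene was kept if 3 or more of the 6 libraries reached 1 FPKM (12284 genes). limma 3.58.1 (R 4.3.3, eBayes with trend, genotype only, two-sided) was used with Benjamini-Hochberg adjustment at 0.05. Members below the filter were fitted over all 29275 genes. Exact permutation tests were two-sided over the 6 libraries. The fit was tested on simulated data. Tried besides were no or another filter, a pseudocount of 0.1 or 5, median-ratio, quantile and Sertoli marker scaling, array weights, a replicate block, an adjusted p threshold of 0.1, and each library left out.

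The members and lists were chosen with earlier results of these data known. Named genes were the 9 members, Arhgef15, fixed receptors, up to 4 genes per pathway list and up to 5 per marker list (the first 3 and those with the smallest p), and the 5 genes nearest to any member with a log2 range above 2, which was Gdnf. Fshr, Etv4, Nudt6, Inhbb, Vim, Gata4, Nr5a1, Upp1, Cd14 and Ccl7 fall outside this rule and were named after their values were seen. Tables and figures came from Python 3.11.15.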

Additional observations from a re-analysis of the deposited data

How the results depend on the processing

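All alternatives were planned. The count of genes past the threshold, 2 in all, was 0 without the filter on low values (1323 genes at an unadjusted p under 0.05), 0 with the replicate block (963 genes) and 25 with Sertoli marker scaling. With 1 library left out it ran from 0 to 478 (limma), with 478 when WT replicate 3 was dropped, 4 when it was WT replicate 1, and 0 in the other 4 fits, where 391 to 819 genes had an unadjusted p under 0.05. In 134 alternative fits of the 9 members, 124 kept the direction and the side of the threshold, 9 reversed and 1, Gdnf without wild-type replicate 3, newly passed. Reversals were Fgf8 (-0.37) and Cxcl12 (-0.41) with Sertoli marker scaling and Csf1 (0.025) with quantile normalization. With 1 library left out the differences ran from 1.18 to 2.56 for Gdnf, -0.71 to 0.083 for Csf1, -0.29 to 0.38 for Cxcl12 and -0.18 to 0.017 for Nrg1. The cause of these changes was not tested. Fgf8 without cKO replicate 1 was at 0 in every library and gave no value.

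Of 285 alternative list medians, 12 moved by more than the SD between replicates. With Sertoli marker scaling, which shifts the median of all genes to -0.42, these were the KIT (-0.45), FGF (-0.60), neuregulin (-0.43), ETS (-0.75), ERK feedback (-0.30), other niche factor (-0.38) and fibroblast (-0.81) lists. That scaling also turned the medians of the GDNF family (-0.14), CXCL12 (-0.41), Gdnf regulator (-0.14), germ cell (-0.29) and Sertoli (-0.17) lists. These moves were of like size but within the larger SD between replicates of those lists. As the Sertoli markers set the scaling, the move of their own median is no separate finding. With a pseudocount of 0.1 the lists that moved were undifferentiated spermatogonia (1.84) and endothelial cells (1.79), and without the filter Leydig cells (-0.081). With 1 library left out, the ERK feedback median ran from 0.021 to 0.40 and the fibroblast median from -0.52 to -0.018.

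Same-numbered wild-type and cKO libraries deviated from their group means with correlations of 0.14, 0.032 and -0.21 over 12284 genes. Differently numbered libraries ran from -0.45 (WT replicate 2 with cKO replicate 1) to 0.48 (WT replicate 2 with cKO replicate 3). The numbers were not taken as pairs, as no source used here says that they are. These correlations cannot show whether cultures shared a litter or day. The replicate block gave a Gdnf difference of 1.65 (limma, adjusted p = 0.618) and changed no call among the 9 members. With 3 libraries per genotype, the precision of each difference is that of its 95% interval.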
